A study of Mus musculus with 12 samples.

Results

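The 10 genes described here encode the main transporters that carry bile acids and other organic anions into and out of liver cells. They were chosen by gene symbol, as the transcript clusters of an Affymetrix mouse Gene Level 1.0 ST array whose platform annotation equals a listed symbol. The 10 genes stand among 19938 genes with a cluster of their own (21789 clusters with exactly 1 gene symbol, of 35557 on the array), and each of the 10 had 1 such cluster. Sinusoidal uptake is represented by Slc10a1, Slco1a1, Slco1a4, Slco1b2 and Slc22a7, canalicular export by Abcb11, Abcc2 and Abcb4, and basolateral export by Abcc3 and Abcc4.

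Total liver RNA of 12 samples was hybridised, 1 array each, in 4 groups of 3: L-NCoR∆ID mutants made hypothyroid (replicates 5, 6 and 7), euthyroid mutants (2, 3 and 4), hypothyroid controls (17, 18 and 20) and euthyroid controls (13, 14 and 15). NCoR is a corepressor that nuclear receptors recruit to repress genes, and the published L-NCoR∆ID line expresses in the liver an NCoR without its receptor interaction domains. The design text asks what part NCoR plays in genes that thyroid hormone raises and in genes that it lowers. How hypothyroidism was induced, the driver of the Cre recombinase, the genotype of the controls, age and sex are given neither in the labels nor in the design text. The level of Ncor1 itself was not analysed here, so no array could be checked against its genotype label.

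Bile acids return from the gut in portal blood and enter hepatocytes across the sinusoidal membrane, chiefly through the sodium-dependent carrier NTCP (Slc10a1) and the sodium-independent organic anion transporting polypeptides (Slco genes), which also carry thyroid hormones. The bile salt export pump (Abcb11) moves bile salts into the bile canaliculus, MRP2 (Abcc2) moves conjugated organic anions, and MDR2 (Abcb4) moves phosphatidylcholine. MRP3 (Abcc3) and MRP4 (Abcc4) sit in the basolateral membrane and return conjugates and bile acids to the blood, a route known to be used when flow into bile is impaired.

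The deposited values are log2 signals made with RMA, and array medians lay between 4.16 and 4.32. Dio1, the deiodinase gene that thyroid hormone induces, was lower in hypothyroid livers, averaged over genotypes, by 5.85 ± 0.149 on the log2 scale (SE; 57.8-fold; adjusted p = 4.41e-12), so the thyroid labels were borne out on that gene. Dio1 stands in a list of 8 measured thyroid hormone genes. Of these, 2 were lower and 0 higher in hypothyroid livers on average at an adjusted p under 0.05, against 6.04% of all clusters. Klf9, of the same list, averaged 7.40 in hypothyroid and 7.37 in euthyroid mutants, and 8.01 in both control groups. Hepatocyte markers were high on every array, with a list mean between 12.65 and 12.9 over 5 measured genes. Xist lay between 9.25 and 9.97 on the 12 arrays, and 3 Y-linked genes (Eif2s3y, Kdm5d, Uty) lay between 1.57 and 2.54. On these genes every array had the female pattern. The first principal component held 36.8% of the variance, and its 2 extremes were the arrays of mutant hypothyroid replicate 7 and control euthyroid replicate 14. The SD of log2 values on an array, a measure of its signal range, was 2.316 to 2.35 in hypothyroid mutants, 2.259 to 2.307 in euthyroid mutants, 2.288 to 2.296 in hypothyroid controls and 2.219 to 2.285 in euthyroid controls. Within each genotype every hypothyroid array thus had a higher SD than every euthyroid array. A fit with the array SD as a covariate, given below for some genes, therefore cannot separate signal range from thyroid state. Below, a difference is called when its limma p-value, adjusted over all 21789 clusters by the Benjamini-Hochberg method, is under 0.05. Because whole liver was used, fewer cells of a type and less RNA per cell cannot be told apart.

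The promoter sequences of the transporters are shown because many of these genes are known targets of nuclear receptors, the class of proteins that recruits NCoR and includes the thyroid hormone receptors. Many nuclear receptors bind the hexamer AGGTCA, and FXR with its partner RXR binds 2 such hexamers facing each other across 1 base, a site known in the Abcb11 promoter. RefSeq promoter windows (GRCm38.p6) were found for 8 of the 10 genes, with no entry for Slc22a7 and Abcc3. The 250 bases before 1 start of each gene were searched for AGGTCA on both strands. Slc10a1 and Abcc4 had 2 starts listed, and only the one farther upstream was used. The hexamer was present in 4 of the 8, and in 14% of the 32851 windows of the same length, which cover every listed start. The pattern AGGTCANTGACCT with at most 1 mismatch, which overlaps the hexamer, was found in Abcb11 and Slco1b2, and in 0.0791% of all windows. The 4 windows follow, 5′ to 3′ on the gene's strand and ending at the base before the start, with the hexamer, or the whole of the longer pattern, in capitals.
Abcb11: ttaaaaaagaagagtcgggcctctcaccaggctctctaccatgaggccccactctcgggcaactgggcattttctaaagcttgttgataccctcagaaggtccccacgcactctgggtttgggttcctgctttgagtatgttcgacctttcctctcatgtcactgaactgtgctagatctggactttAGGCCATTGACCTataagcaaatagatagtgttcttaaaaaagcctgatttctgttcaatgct
Slco1b2: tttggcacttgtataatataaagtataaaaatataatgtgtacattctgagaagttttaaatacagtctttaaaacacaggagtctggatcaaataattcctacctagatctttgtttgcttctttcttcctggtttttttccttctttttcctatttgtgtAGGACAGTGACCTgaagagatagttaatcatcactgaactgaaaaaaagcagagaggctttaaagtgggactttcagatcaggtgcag
Slco1a1: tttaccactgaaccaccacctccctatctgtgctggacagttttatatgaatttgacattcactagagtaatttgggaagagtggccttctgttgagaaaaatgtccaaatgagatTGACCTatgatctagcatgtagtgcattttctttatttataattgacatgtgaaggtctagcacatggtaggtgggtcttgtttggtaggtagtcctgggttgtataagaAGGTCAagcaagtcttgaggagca
Abcc2: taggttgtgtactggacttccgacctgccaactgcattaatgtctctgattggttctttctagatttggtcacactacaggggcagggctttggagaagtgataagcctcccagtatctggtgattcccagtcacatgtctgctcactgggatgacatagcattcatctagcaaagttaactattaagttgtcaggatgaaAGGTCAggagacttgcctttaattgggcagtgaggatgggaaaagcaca

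The Abcb11 window (chr2:69342617-69342866, minus strand) held the longer pattern as AGGCCATTGACCT, 63 to 51 bases before the start. The Slco1b2 window (chr6:141629268-141629517, plus strand) held it as AGGACAGTGACCT, 88 to 76 bases before the start. Slco1a1 (chr6:141946963-141947212, minus strand) held 2 single hexamers, 134 to 129 and 24 to 19 bases before the start, and Abcc2 (chr19:43782058-43782307, plus strand) held 1, 49 to 44 bases before it. The windows of Slc10a1, Slco1a4, Abcb4 and Abcc4 held none of these letters. A match of letters is a description and no measure of binding.

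In hypothyroid livers some transporters were several-fold lower and others higher. Averaged over genotypes, 6 of the 10 transporters were called in hypothyroid against euthyroid livers, 3 lower (Slc22a7, Slco1a1 and Abcb4) and 3 higher (Abcc4, Abcc3 and Abcc2), against a background of 6.04% of all clusters. That background includes clusters of low signal. With the fit limited to clusters above the median level, 7 of the 10 and 1558 of 12523 clusters were called, a larger share of clusters. The members' median absolute difference was 0.48, against 0.14 over all clusters, and their median signed difference was 0.11, against -0.02 over all clusters. Within a single genotype 3 of 10 were called in mutants and 3 of 10 in controls, against a background of 1.11% and 1.11%. Slc22a7 (lower), Abcc3 and Abcc4 (both higher) were the 3 called in each genotype. The 2 differences within genotype share no array, but their p-values share 1 estimate of the spread from all 12. Each average uses all 12.

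**Figure D1:**
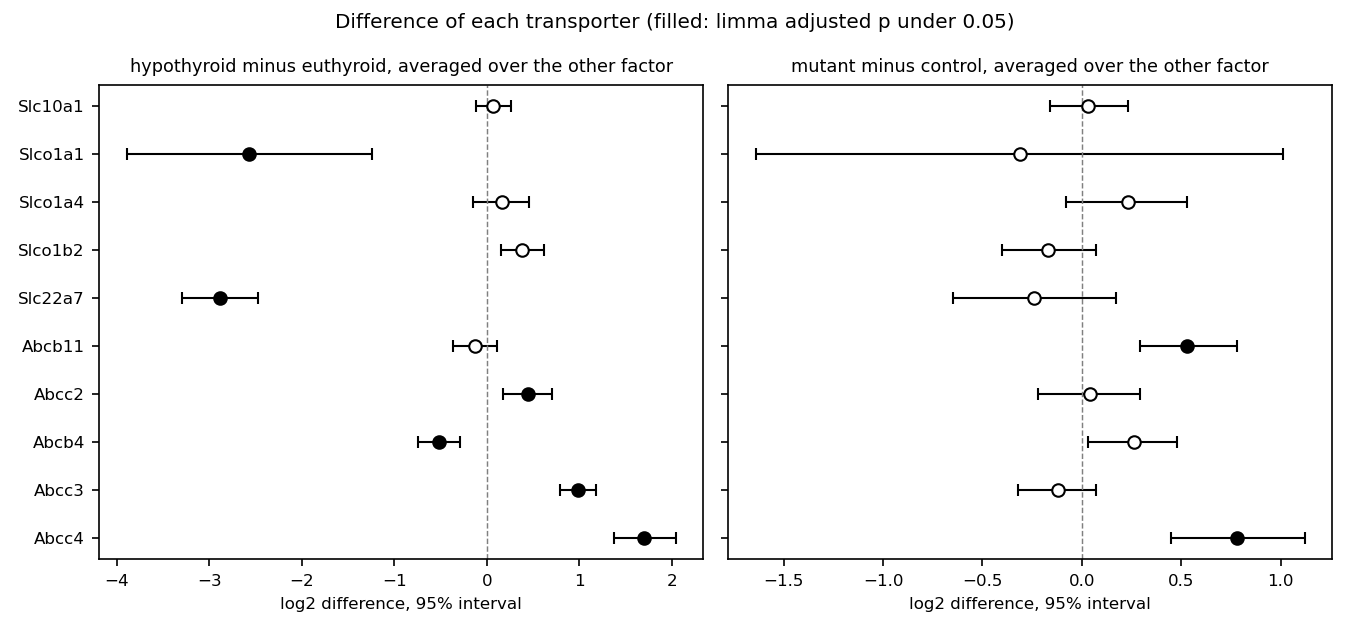
Log2 difference (x axis) of the 10 transporters (rows) for hypothyroid minus euthyroid livers (left panel) and mutant minus control livers (right panel), each averaged over the other factor, with 95% confidence intervals from limma; filled points have an adjusted p under 0.05. Slc22a7 (-2.88) and Slco1a1 (-2.57) lie farthest to the left and Abcc4 (1.70) farthest to the right in the thyroid panel, while only Abcb11 (0.53) and Abcc4 (0.78) are filled in the genotype panel.

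The 3 genes whose thyroid difference was called in each genotype come first. Slc22a7 encodes OAT2, a sinusoidal carrier of organic anions. Its log2 signal was 3.52, 3.76 and 3.66 in hypothyroid mutants and 6.08, 7.34 and 6.0 in euthyroid mutants. In controls it was 3.75, 3.89 and 3.88 in hypothyroid livers and 6.55, 7.15 and 6.60 in euthyroid livers. All 6 hypothyroid arrays lay below all 6 euthyroid arrays, and the hypothyroid values stood in a narrow band, at -0.67 to -0.32 relative to the median of their arrays. The difference was -2.83 ± 0.272 in mutants (SE; 7.09-fold lower; limma adjusted p = 9.24e-05) and -2.93 ± 0.272 in controls (7.61-fold lower; adjusted p = 3.85e-05). Averaged over genotypes it was -2.88 (7.35-fold lower), the 15th largest absolute difference of the 21789 clusters. No background estimate came with the values, so how far the hypothyroid signal lay above background is not known.

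Abcc4 encodes MRP4, which exports bile acids together with glutathione and sulfated steroids across the basolateral membrane. Its signal was 7.81, 8.07 and 7.53 in hypothyroid mutants and 6.35, 5.64 and 5.86 in euthyroid mutants. Among controls it was 6.86, 6.44 and 7.31 in hypothyroid livers and 5.52, 5.26 and 5.17 in euthyroid livers. Every hypothyroid array exceeded every euthyroid array, and within each thyroid state every mutant array exceeded every control array. The thyroid difference was 1.85 ± 0.223 in mutants (SE; 3.61-fold; adjusted p = 0.000729) and 1.55 ± 0.223 in controls (2.94-fold; adjusted p = 0.00189). Abcc4 was the only transporter of the set called for both thyroid state and, on average, genotype.

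Abcc3, which encodes MRP3, a basolateral exporter of glucuronide conjugates, shared the thyroid direction of Abcc4 but not its ordering by genotype. Its signal was 10.20, 10.34 and 10.33 in hypothyroid mutants and 9.49, 9.40 and 9.15 in euthyroid mutants. It was 10.60, 10.31 and 10.46 in hypothyroid controls and 9.55, 9.36 and 9.38 in euthyroid controls. The 6 hypothyroid arrays all lay above the 6 euthyroid arrays, while mutant and control arrays overlapped in both thyroid states. The thyroid difference was 0.94 ± 0.131 in mutants (SE; 1.92-fold; adjusted p = 0.00208) and 1.03 ± 0.131 in controls (2.04-fold; adjusted p = 0.000736). With the array SD as a covariate, which is confounded with thyroid state, the mutant difference was 0.75 and its adjusted p 0.137.

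**Figure D2:**
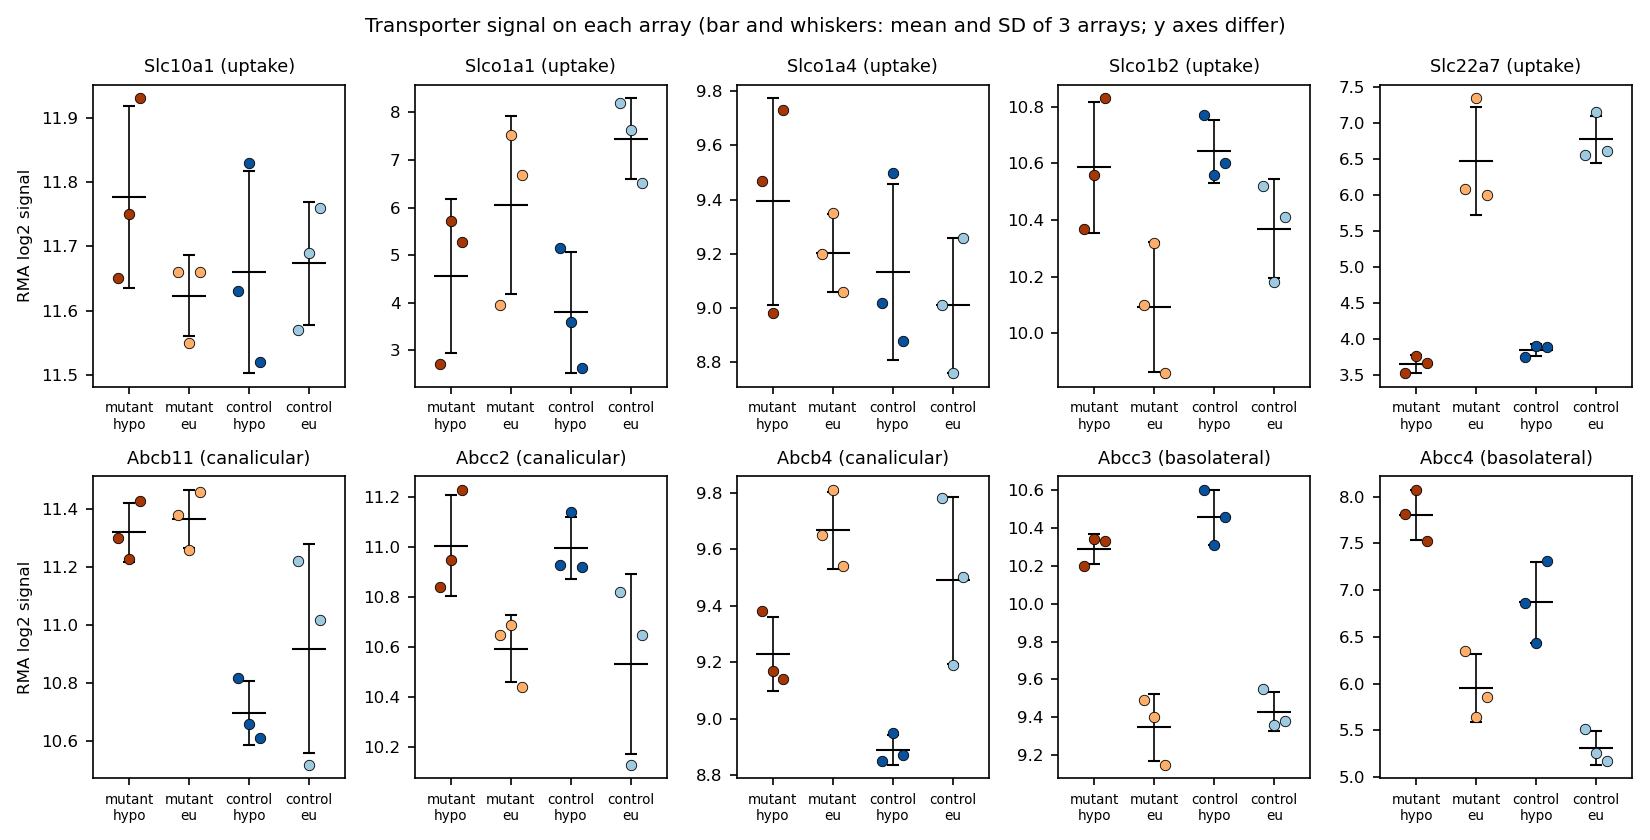
RMA log2 signal (y axis, scale differs between panels) of each of the 10 transporters on every array, in hypothyroid mutants, euthyroid mutants, hypothyroid controls and euthyroid controls (hypo and eu on the x axis). Points are arrays, horizontal bars are means and whiskers are SD (n = 3). Slc22a7, Abcc3 and Abcc4 separate by thyroid state in both genotypes, as do Slco1b2, Abcc2 and Abcb4 by smaller differences. Abcb11 and Abcc4 separate by genotype in both thyroid states, and Slco1a1 is spread over several log2 units within groups.

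The remaining uptake carriers were less uniform. Slco1a1 encodes OATP1A1, a sinusoidal carrier whose transcript is known to predominate in male mouse liver, while every array here had the female pattern. The Slco1a1 signal was 2.71, 5.71 and 5.28 in hypothyroid mutants and 3.96, 7.52 and 6.68 in euthyroid mutants. It was 5.16, 3.59 and 2.64 in hypothyroid controls and 8.19, 7.63 and 6.52 in euthyroid controls. Control groups did not overlap, whereas the euthyroid mutant array of replicate 2 lay within the range of the hypothyroid mutants. Averaged over genotypes the difference was -2.57 ± 0.62 (SE; 5.93-fold lower; adjusted p = 0.0259), with a 95% interval from -3.89 to -1.24. Within genotype it was -1.48 ± 0.877 in mutants (adjusted p = 0.414) and -3.65 ± 0.877 in controls (adjusted p = 0.0604), neither of them called. The mutant value depended on single arrays, being -0.55 without mutant hypothyroid replicate 5, -0.75 without mutant euthyroid replicate 3 and -2.53 without mutant euthyroid replicate 2. Slco1a1 had by far the widest spread of the set, with SDs of 1.63 in hypothyroid mutants, 1.86 in euthyroid mutants, 1.27 in hypothyroid controls and 0.849 in euthyroid controls (n = 3 each). The average call was lost without any 1 of 6 arrays (adjusted p between 0.0503 and 0.0715 without mutant hypothyroid 5, mutant euthyroid 3 or 4, control hypothyroid 18 or 20, or control euthyroid 14).

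Slco1b2 encodes OATP1B2, the rodent liver carrier for unconjugated bile acids and many drugs. It had 10.37, 10.56 and 10.83 in hypothyroid mutants, 10.10, 10.32 and 9.86 in euthyroid mutants, 10.77, 10.56 and 10.60 in hypothyroid controls, and 10.52, 10.18 and 10.41 in euthyroid controls. Within each genotype the hypothyroid arrays all lay above the euthyroid ones, but the averaged difference of 0.38 ± 0.11 missed the threshold (adjusted p = 0.0527). It passed when the fit was limited to clusters above the median level (adjusted p = 0.0407), with trended robust variances (0.0345), and without mutant hypothyroid 5 (0.0433), mutant euthyroid 3 (0.0382) or control euthyroid 13 (0.0242). It was 0.04 with the array SD as a covariate (adjusted p = 0.955), a fit that cannot separate signal range from thyroid state.

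Slc10a1, the gene of the sodium-dependent bile acid carrier NTCP, had 11.65, 11.75 and 11.93 in hypothyroid mutants, 11.66, 11.55 and 11.66 in euthyroid mutants, 11.63, 11.83 and 11.52 in hypothyroid controls, and 11.57, 11.69 and 11.76 in euthyroid controls. All 4 groups overlapped. The averaged thyroid difference was 0.07, with a 95% interval from -0.12 to 0.26 (adjusted p = 0.655), and the averaged mutant difference was 0.03, with an interval from -0.16 to 0.23 (adjusted p = 0.882). Slco1a4, the gene of OATP1A4, lay between 8.98 and 9.73 in hypothyroid mutants, 9.06 and 9.35 in euthyroid mutants, 8.88 and 9.50 in hypothyroid controls, and 8.76 and 9.26 in euthyroid controls. Its groups overlapped too, with an averaged thyroid difference of 0.16 (interval from -0.15 to 0.46; adjusted p = 0.516) and an averaged mutant difference of 0.23 (interval from -0.08 to 0.53; adjusted p = 0.445). Slco1b2, Slco1a4 and Slco1a1 lie on chromosome 6 (RefSeq, GRCm38.p6). Among the protein-coding genes there with symbols starting in Slco1, they stand between Slco1c1 on one side and Slco1a6 and Slco1a5 on the other. Genes with other symbols were not looked at, so whether others lie between them is not given. Slco1c1, Slco1a6 and Slco1a5 had group means between 2.02 and 3.01 and were not called in any comparison. Slco genes are close in sequence, and their probes may share signal.

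Of the canalicular exporters, Abcc2 and Abcb4 were called in opposite directions. Abcc2 had 10.84, 10.95 and 11.23 in hypothyroid mutants, 10.65, 10.69 and 10.44 in euthyroid mutants, 10.93, 11.14 and 10.92 in hypothyroid controls, and 10.82, 10.13 and 10.65 in euthyroid controls. All 6 hypothyroid values exceeded all 6 euthyroid values, though by as little as the gap between 10.84 and 10.82. The averaged difference was 0.44 ± 0.121 (SE; 1.36-fold; adjusted p = 0.0458), and neither genotype alone was called (0.42 in mutants, adjusted p = 0.263, and 0.46 in controls, adjusted p = 0.258). The call was kept without mutant hypothyroid replicate 5 (adjusted p = 0.0492) or control euthyroid replicate 13 (0.0112) and was lost without any other single array (0.0549 to 0.123). With the array SD as a covariate, again confounded with thyroid state, the difference was 0.05.

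Abcb4 had 9.38, 9.17 and 9.14 in hypothyroid mutants, 9.65, 9.81 and 9.54 in euthyroid mutants, 8.85, 8.95 and 8.87 in hypothyroid controls, and 9.78, 9.19 and 9.50 in euthyroid controls. Hypothyroid arrays lay below euthyroid arrays within each genotype, and mutants lay above controls among the hypothyroid arrays. The averaged thyroid difference was -0.52 ± 0.106 (SE; 1.43-fold lower; adjusted p = 0.0105). In mutants it was -0.43 ± 0.149 (adjusted p = 0.193). In controls it was -0.60 ± 0.149 (adjusted p = 0.0745), and without control euthyroid replicate 14, the lowest euthyroid array, it was -0.75 (adjusted p = 0.0194).

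Without both arrays at the ends of the first principal component, the averaged thyroid difference was -2.78 for Slc22a7, -0.57 for Abcb4, 1.76 for Abcc4 and 0.96 for Abcc3, all 4 still called. Slco1a1 (-2.7, adjusted p = 0.068) and Abcc2 (0.28, adjusted p = 0.151) were not. Some Kupffer cell and macrophage markers differed with thyroid state as well. The list mean over 10 genes was 5.47 to 6.31 in hypothyroid mutants, 6.27 to 7.26 in euthyroid mutants, 5.42 to 5.59 in hypothyroid controls and 5.91 to 6.09 in euthyroid controls. Of the 10, 3 were called lower in hypothyroid livers on average, Clec4f (-0.98), Cd5l (-0.85) and C1qc (-0.85), against 6.04% of all clusters called. Cholangiocyte markers, of the other epithelial cells that carry bile acid transporters, had list means between 3.77 and 4.05 in all groups. Of these, 0 of 5 were called, against the same 6.04% in the averaged thyroid comparison. The part of macrophage RNA or of array signal range in the transporter differences was not tested.

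**Figure D3:**
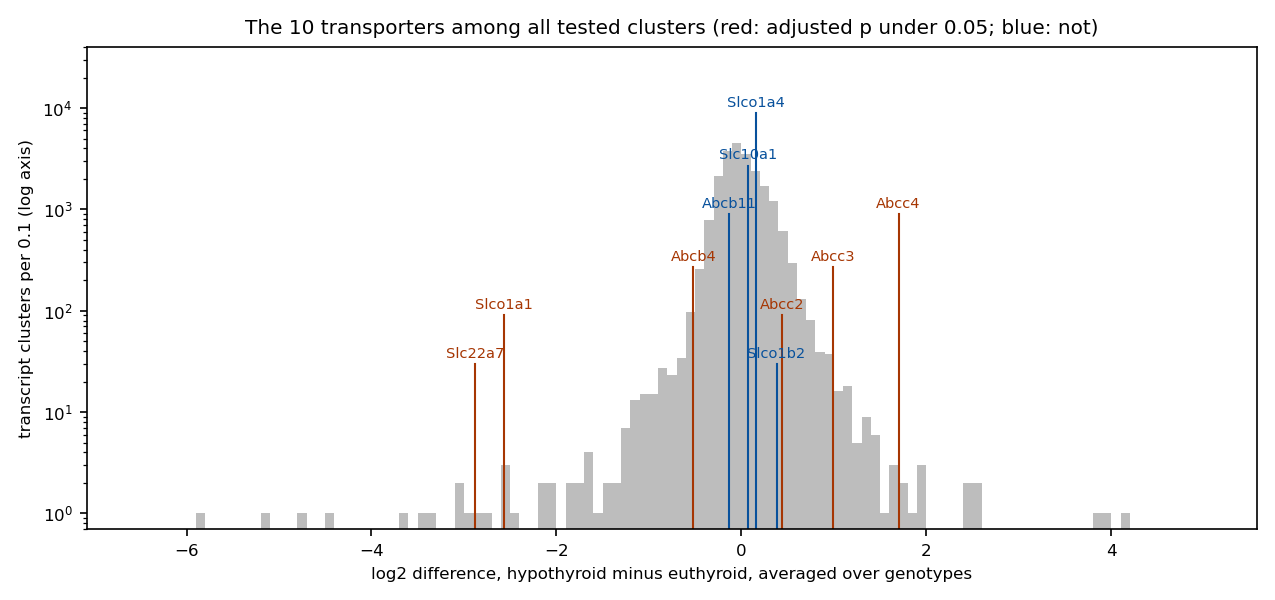
Number of transcript clusters per 0.1 log2 (y axis, log scale) by hypothyroid minus euthyroid difference averaged over genotypes (x axis, log2), for all 21789 clusters with 1 gene symbol (grey). Vertical lines mark the 10 transporters, in red where the limma adjusted p was under 0.05 and in blue otherwise, with heights set apart for legibility. Slc22a7, Slco1a1 and Abcc4 stand in the sparse tails, and Slc10a1, Slco1a4 and Abcb11 stand in the central mass.

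Counted by arrays, hypothyroid and euthyroid arrays did not overlap for 6 of the 10 transporters in mutants (25.7% of all clusters) and for 7 of 10 in controls (16.7%). The 6 were Slc22a7 and Abcb4 on the lower side and Slco1b2, Abcc2, Abcc3 and Abcc4 on the higher side, and Slco1a1 was the additional one in controls.

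Fewer transporters were called between genotypes than between thyroid states. The genotype and thyroid comparisons use the same arrays and are given side by side. Averaged over thyroid states, 2 of the 10 transporters were called, Abcb11 and Abcc4, both higher in mutants, against a background of 1.14% of all clusters. Within a thyroid state 0 of 10 were called among hypothyroid livers (background 0.262%) and 0 of 10 among euthyroid livers (background 0.129%). At an unadjusted p under 0.05, limma gave 3 members in hypothyroid livers (Abcc4, Abcb11 and Abcb4) and 2 in euthyroid livers (Abcc4 and Abcb11), against 10.4% and 8.13% of all clusters. Mutant and control arrays did not overlap for the same 3 and the same 2 genes, against 22.5% of all clusters in hypothyroid livers and 10.4% in euthyroid livers.

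Abcb11, the bile salt export pump and a known target of the bile acid receptor FXR, had 11.30, 11.23 and 11.43 in hypothyroid mutants and 11.38, 11.26 and 11.46 in euthyroid mutants. In controls it had 10.82, 10.66 and 10.61 in hypothyroid livers and 11.22, 10.52 and 11.02 in euthyroid livers. All 6 mutant arrays lay above all 6 control arrays, the nearest pair being 11.23 in a hypothyroid mutant and 11.22 in a euthyroid control. Averaged over thyroid states the mutant difference was 0.53 ± 0.113 (SE; 1.45-fold; adjusted p = 0.0336). Within hypothyroid livers it was 0.62 ± 0.159 (adjusted p = 0.173), and within euthyroid livers 0.45 ± 0.159 (adjusted p = 0.536). The averaged thyroid difference of Abcb11 was -0.13, with a 95% interval from -0.37 to 0.11 (adjusted p = 0.477).

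Abcc4, whose values are given above, averaged 7.80 ± 0.273 in hypothyroid mutants, against 6.87 ± 0.438 in hypothyroid controls, and 5.95 ± 0.365 in euthyroid mutants, against 5.32 ± 0.179 in euthyroid controls (SD, n = 3 each). The averaged mutant difference was 0.78 ± 0.158 (SE; 1.72-fold; adjusted p = 0.0265). It was 0.93 ± 0.223 in hypothyroid livers (adjusted p = 0.14) and 0.64 ± 0.223 in euthyroid livers (adjusted p = 0.527). The other 8 transporters had averaged mutant differences from -0.31 for Slco1a1 to 0.26 for Abcb4, and none was called. Slco1a1, with its wide spread, had a 95% interval from -1.64 to 1.01, so a difference of over 2-fold in either direction lay within it.

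Both averaged mutant calls were close to the threshold. That of Abcb11 was kept without control euthyroid replicate 13 (adjusted p = 0.00453) or 14 (0.0352) and lost without any other single array (0.0551 to 0.0928). That of Abcc4 was kept without mutant euthyroid 3, mutant hypothyroid 7, control hypothyroid 20 or control euthyroid 13 (0.00965 to 0.0285) and lost without any of the other 8 (0.0538 to 0.081). Without both arrays at the ends of the first principal component the mutant difference was 0.41 for Abcb11 (adjusted p = 0.0737) and 0.84 for Abcc4 (adjusted p = 0.0528). Within the marker lists, the Kupffer cell gene Adgre1 was called higher in mutants on average (0.66, 1 of 10, against 1.14% of all clusters called). Its part in these values was not tested.

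The thyroid effect was not shown to differ between genotypes for any transporter. The interaction, the mutant difference in hypothyroid livers minus that in euthyroid livers, was called for 0 of 10 members by limma, against a background of 0%. At an unadjusted p under 0.05 it gave 0 members, against 2.75% of all clusters. The estimate for Slco1a1 was 2.17 with a 95% interval from -0.48 to 4.81 (unadjusted p = 0.101), which includes both no difference and a large one. For Slc22a7 it was 0.10 (-0.72 to 0.92), for Abcc4 0.30 (-0.38 to 0.97) and for Abcc3 -0.09 (-0.48 to 0.31).

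The genes whose profiles over the 12 arrays were nearest to those of the 3 transporters called within genotype were found by root mean square difference of centred log2 values, among clusters with at least 0.5 times the member's range of group means. Nearest to Abcc4 were Gstm3 (0.312), Gstm4 (0.404) and Ugdh (0.431), among 256 candidates. The first 2 encode glutathione transferases, and Ugdh encodes the enzyme that makes UDP-glucuronic acid. Nearest to Abcc3 were Gstm1 (0.132), another glutathione transferase, Hexa (0.151), a lysosomal hexosaminidase subunit, and Ank3 (0.162), an ankyrin, among 3340 candidates. Nearest to Slc22a7 were Nudt7 (0.63), a peroxisomal coenzyme A hydrolase, Ccnd1 (0.633), cyclin D1, and Sult5a1 (0.664), a sulfotransferase, among 157 candidates. These distances compare with SDs over the 12 arrays of 1.02 for Abcc4, 0.531 for Abcc3 and 1.55 for Slc22a7. Gstm genes are close in sequence and may share probe signal.

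**Figure D4:**
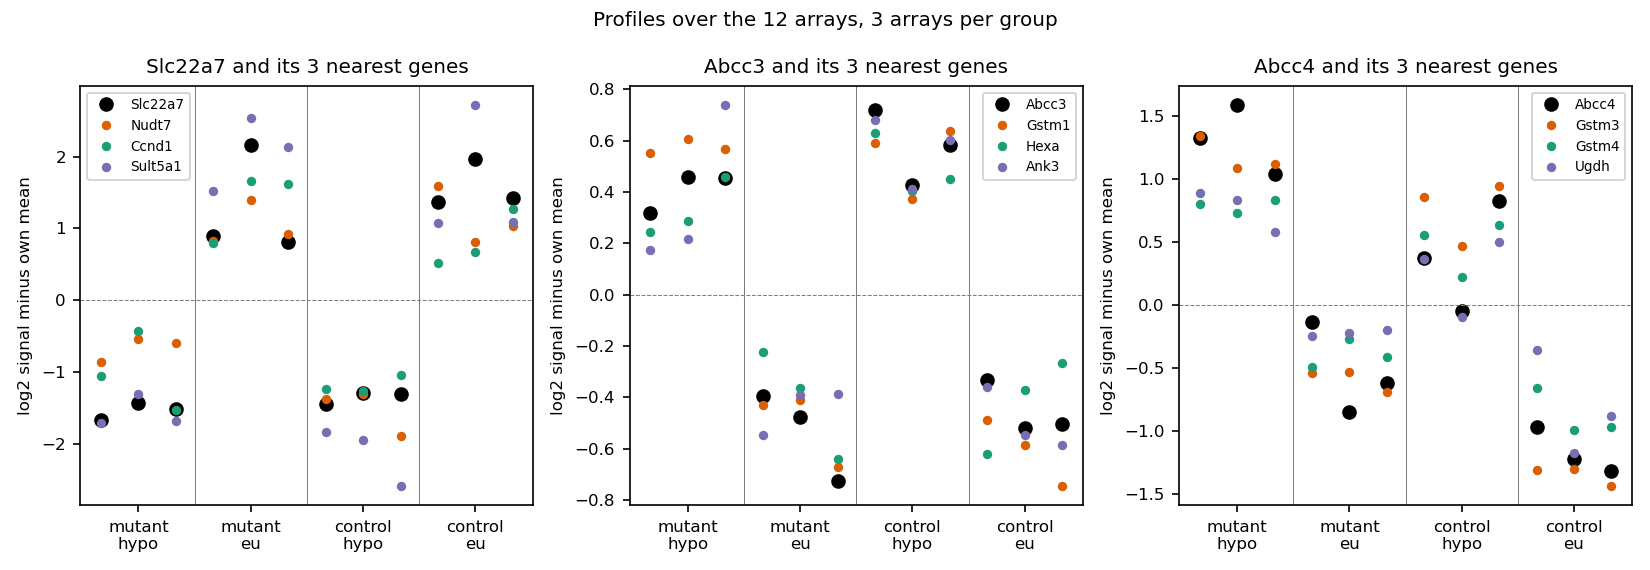
Log2 signal minus each gene's own mean over 12 arrays (y axis) for Slc22a7, Abcc3 and Abcc4 (black) and the 3 genes with the nearest profile to each (colours), by array within the 4 groups (x axis; hypo and eu as thyroid states). Points are single arrays. The Abcc3 genes fall into a hypothyroid level and a euthyroid level, while the Abcc4 genes also lie lower in controls than in mutants within each thyroid state.

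Genes of the pathways around the transporters were counted from lists chosen by function, with earlier results of these data known. The counts are therefore a description. NRF2, a transcription factor that responds to oxidative and electrophilic stress, is known to induce Abcc3 and Abcc4 in mouse liver. Of its 14 measured listed targets, 7 were called higher and 0 lower in hypothyroid livers on average, against 6.04% of all clusters called in either direction. The rest were not called, and of them Hmox1 and Slc7a11 had lower group means in hypothyroid livers of both genotypes. The list median was 0.51, against -0.02 over all clusters. Nqo1, a quinone reductase, had the largest difference (1.83 ± 0.106, 3.56-fold, adjusted p = 1.22e-07), and averaged 7.42 in hypothyroid mutants, 5.70 in euthyroid mutants, 7.60 in hypothyroid controls and 5.66 in euthyroid controls. Gstm4 (1.26), Gstm1 (1.11) and Ugdh (1.03) followed, and Gstm genes count separately though they may share probe signal. Between mutants and controls only Me1, also a thyroid hormone target, was called of these 14 (1.57 on average; 1.14% of all clusters called). The part of NRF2, or of the pathways that follow, in the transporter differences was not tested.

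Of 17 measured enzymes of bile acid synthesis, 5 were called lower and 2 higher in hypothyroid livers on average and 10 did not pass, with a list median of -0.23 (6.04% of all clusters called). Cyp7a1, the rate-limiting enzyme, averaged 7.81 in hypothyroid mutants, 9.44 in euthyroid mutants, 6.17 in hypothyroid controls and 8.59 in euthyroid controls, an averaged thyroid difference of -2.03 ± 0.316 (4.07-fold lower, adjusted p = 0.00157). Cyp7b1 (-1.13) and Cyp27a1 (-0.55), of the alternative pathway, were also lower, as were Hsd3b7 (-0.36) and Amacr (-0.34). Scp2 (0.89), a peroxisomal thiolase and sterol carrier, and Acox2 (0.51), a peroxisomal oxidase, were higher. Averaged over thyroid states, 3 enzymes were called higher in mutants and 0 lower, against 1.14% of all clusters called: Cyp7b1 (1.17), Cyp27a1 (0.64) and Cyp2c70 (0.64), which makes muricholic acids in mice.

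Of 16 measured receptors and signals that control the transporters, 3 were called higher in hypothyroid livers on average and 0 lower, with a list median of 0.23 (6.04% of all clusters were called in either direction): Klb (0.52), the coreceptor for FGF15 and FGF19, Nr1i3 (0.51), which encodes the xenobiotic receptor CAR, and Nr1i2 (0.42), which encodes PXR. Nr1i3 was the only one called between genotypes on average, lower in mutants (-0.65; 1.14% of all clusters called). Nr1h4, which encodes FXR and is named for that role outside the rule for named genes, averaged 8.60 in hypothyroid mutants, 8.19 in euthyroid mutants, 8.75 in hypothyroid controls and 8.34 in euthyroid controls and was not called in any comparison. Among 12 measured FXR targets other than Abcb11, 2 were called lower in hypothyroid livers on average (6.04% of all clusters called), Cyp7a1 (which FXR represses) and Slc51b (-0.57), and 1 was called higher in mutants (1.14% of all clusters), Pltp (1.53), a phospholipid transfer protein. Both of the lower genes stand in other lists too.

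Of 12 measured PXR and CAR targets, 5 were called higher in mutants on average and 0 lower, against 1.14% of all clusters called, led by Ces2a (1.47), a carboxylesterase, Papss2 (1.03), which makes the sulfate donor, and the drug-metabolising Cyp3a11 (0.74) and Cyp3a25 (0.63). Gstm3 (0.60) was the remaining one called. The rest of the list was not called, and not all of it lay higher in mutants. Cyp2b13 averaged 6.49 in hypothyroid mutants against 7.16 in hypothyroid controls, and 7.83 against 9.15 in euthyroid livers, with wide spread. Cyp2b9, Cyp3a13 and Cyp2c29 had lower means in mutants among euthyroid livers only. Between thyroid states (6.04% of all clusters called) 2 of the 12 were called higher in hypothyroid livers, Gstm3 (1.94) and Cyp2c29 (0.57), and 1 lower, Papss2 (-0.98). Of 25 other measured hepatic transporters, 3 were called higher in hypothyroid livers on average (6.04% of all clusters called): Abcg2 (0.75), a canalicular efflux pump, Atp8b1 (0.60), a canalicular phospholipid flippase, and Abcg8 (0.53), a sterol exporter subunit. Slc51b (-0.57), a subunit of the basolateral organic solute transporter, and Slc10a5 (-0.46), of the Slc10a1 family, were called lower. Between genotypes on average 1 of the 25 was called (1.14% of all clusters), Abcg5 (0.67), the partner of Abcg8, higher in mutants.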

How the data were processed

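Total liver RNA (200 ng per array, per the labels' protocols) was hybridised to 12 arrays. The authors deposited log2 values made with RMA, per the submitters' processing notes; neither the labels nor the notes give its version, options, feature build or scan dates. Array batches were therefore not tested, and the number of arrays limits the precision. Groups come from the sample titles. The labels do not say that the samples of a group came from separate animals, so p-values measure the spread between these samples.

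With limma 3.58.1 in R 4.3.3, 1 linear model of the 4 groups took in all 12 arrays (prior degrees of freedom 6.83, residual 8) and the 21789 clusters with 1 gene symbol, with no filter on level. P-values were adjusted by the Benjamini-Hochberg method within each comparison and called under 0.05. The platform annotation gave several symbols to 1621 clusters and none listed to 12147, which were left out. The fit was tested on simulated data.

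All 10 members are named. Of each pathway list, up to 4 called genes with the largest difference are named, or more where a count of 5 or fewer is spelled out. For likeness, the 3 nearest genes are named. The hepatocyte list and the thyroid hormone list with Dio1 served as checks, and not every called gene of these is named. The members and lists were chosen with earlier results of these data known. Alternatives were quantile normalization, centring on array medians, only clusters above the median level, all clusters of the table, the groups compared alone, array SD as a covariate, trended robust variances, and each array left out. Leaving out the 2 arrays at the ends of the first principal component was chosen after seeing the data. Promoter windows and gene order are from RefSeq (GRCm38.p6). Marker list means are means of log2 values per array.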

Additional observations from a re-analysis of the deposited data

How the results depend on the processing

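Of 14 called member differences, 9 stayed called under every setting tried, none of the 14 changed direction, and 0 called values reversed. The exceptions were the averaged thyroid calls of Slco1a1 and Abcc2, the averaged mutant calls of Abcb11 and Abcc4, and Abcc3 in mutants, the last with array SD as a covariate alone. The averaged mutant count of 2 fell to 0 with every cluster of the table (adjusted p of 0.109 for Abcb11 and 0.111 for Abcc4, with more clusters tested), to 0 with the covariate (0.474 and 0.24) and to 0 without both arrays at the ends of the first principal component, and ranged from 0 to 3 with each array left out. The third gene, Abcb4, was called without control euthyroid replicate 13 (0.0491). For mutant against control in hypothyroid livers the count of 0 became 1 with the groups compared alone (Abcb11, adjusted p = 0.0438) and ranged from 0 to 1 with each array left out (Abcb11 without control euthyroid replicate 14, 0.0335). The averaged thyroid call of Slco1a1 was lost with every cluster (0.0821), the covariate (0.116) and trended robust variances (0.109), and that of Abcc2 with every cluster (0.0924), quantile normalization (0.123) and the covariate (0.945). Slco1a1 in controls passed with the groups compared alone (0.026) and without mutant euthyroid 2 (0.028) or mutant hypothyroid 5 (0.0364). No cause of a lost or gained call was tested. Counts over all clusters also moved: the averaged thyroid comparison called 1317, 181 with the covariate, 872 of every cluster, and 680 to 3579 with 1 array left out (3579 without control euthyroid replicate 13), and the averaged mutant comparison called 248, 41, 95, and 107 to 1866. Hypothyroid against euthyroid mutants called 241, 36, 146, and 89 to 620 (322 with the groups compared alone), and controls 242, 137, 144, and 134 to 864 (135 alone). Mutant against control called 57, 9, 33, and 21 to 133 in hypothyroid livers (174 alone), and 28, 28, 10, and 6 to 192 in euthyroid livers (19 alone, 45 with quantile normalization). No paired analysis was possible because the groups share no replicate numbers. The mean over several clusters of a member was not run, since each member had 1. How far the low signals of Slc22a7 and Slco1a1 in hypothyroid livers lay above background is not known.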
